A study of Mus musculus with 168 samples.

Results

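The microRNAs described here are 6 genes of the mouse genome, Mir200a, Mir200b, Mir429, Mir200c, Mir182 and Mir96, out of the 1626 transcripts counted in small RNA sequencing of mouse cortex. They were chosen by gene name. The choice was made because their levels were known to differ widely from library to library and to move together, so these levels and their co-variation are given as a description, without a test. The cortex came from heterozygous *Htt* knock-in mice of 6 lines, in which human *HTT* exon 1 with an expanded or normal CAG repeat replaces part of one mouse allele, and from littermates of the Q20 mice without the knock-in allele (WT). The strain of all mice is labelled C57BL/6, and the knock-in males had been bred to C57BL/6J females. The lines Q20, Q80, Q92, Q111, Q140 and Q175 are named for the length of their CAG repeat, and the Q20 and WT mice served as controls. Each of these 7 genotypes contributed 8 mice, 4 female and 4 male, at 2, 6 and 10 months, which gave 168 libraries from separate animals. The Q175 line arose from the Q140 line by spontaneous repeat expansion. The mice were housed with mice of their own sex and line, so that sex and cage cannot be told apart within a line. The 8 WT libraries of 6 months are shown apart, since the methods of the study do not list them.

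MicroRNAs are short RNAs of about the length of the sequences printed below, which guide the silencing complex to messenger RNAs that pair with the seed, bases 2 to 8 from the 5′ end. The miR-200 family is known from epithelial cells, where it holds down the repressors Zeb1 and Zeb2, and from the olfactory epithelium and olfactory bulb, where it takes part in the differentiation of olfactory neurons. The miR-183 cluster, which holds miR-182 and miR-96, is known from sensory cells of the eye, the ear and the nose. None of these microRNAs is regarded as a marker of cortical neurons.

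The 6 genes lie in 3 genomic clusters, all on the minus strand of GRCm38 (mm10). Mir200b (chr4:156055681-156055750), Mir200a (chr4:156054896-156054985) and Mir429 (chr4:156053905-156053987) lie within 1846 bases of each other, inside introns of the protein-coding gene Ttll10. Mir429 also overlaps an exon of the noncoding transcript Gm13648, and Mir200a and Mir200b lie in its introns. Mir200c (chr6:124718322-124718390) lies in an intron of the noncoding gene Gm15884, 1372 bases from the coding gene Phb2, and within 477 bases together with Mir141. Mir182 (chr6:30165918-30165992) and Mir96 (chr6:30169446-30169551) are intergenic and span 3820 bases with Mir183. Mir141 and Mir183 were not among the chosen 6, but they are the remaining members of these clusters and are described as partners.

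The mature sequences of the arm known to be the main product of each hairpin show which of these microRNAs read the same targets, and they also bear on how reads were divided between them. They were taken from RefSeq (GRCm38.p6), where all 8 hairpins matched, and are printed 5′ to 3′ with the seed in capitals. The deposited count of a hairpin does not tell its arms apart.
mmu-miR-200b-3p: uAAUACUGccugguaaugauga
mmu-miR-200c-3p: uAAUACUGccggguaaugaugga
mmu-miR-429-3p: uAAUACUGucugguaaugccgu
mmu-miR-200a-3p: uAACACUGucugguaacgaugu
mmu-miR-141-3p: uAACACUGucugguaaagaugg
mmu-miR-182-5p: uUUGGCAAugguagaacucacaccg
mmu-miR-96-5p: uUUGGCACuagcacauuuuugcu
mmu-miR-183-5p: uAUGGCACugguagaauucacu
The seed AAUACUG is shared by miR-200b, miR-200c and miR-429, which come from both miR-200 clusters, and the seed AACACUG by miR-200a and the partner miR-141. The seeds of miR-182 and miR-96 differ from each other, although their first 7 letters from the 5′ end are identical, and miR-183 has a seed of its own.

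The first 16 letters of miR-200a-3p and miR-141-3p are identical, and 20 of their 22 positions hold the same letter. The deposited values of Mir200a and of Mir141 were whole numbers, within 0.01, in 63 of 168 libraries, whereas their sum was whole in all 168. Reads that could come from either gene were thus divided between them, and the levels of Mir200a and Mir141 are uncertain to that extent. The values of Mir200b, Mir429, Mir200c, Mir182 and Mir96 were whole in every library.

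Levels are given as CPM, the counts scaled to a fixed library total, after TMM normalization over all 168 libraries. A read of this assay spans a whole mature microRNA, so CPM was not divided by length. The ligation efficiency of each sequence is unknown. Where a microRNA is called the most counted or most abundant, or leads a list, this refers to CPM only and not to amounts in the tissue. The libraries held between 2041741 and 11646287 counts. Correlated with the summed level of the 6 microRNAs, the library total gave Spearman's rho of 0.20 across the 56 libraries of 2 months, 0.23 across the 48 libraries of 6 months without WT, −0.64 across the 8 WT libraries of 6 months and −0.37 across the 56 libraries of 10 months, as a description.

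The summed level of the 6 microRNAs differed widely between mice of one genotype and age at 2 and 6 months, and much less at 10 months. Across the 56 libraries of 2 months it ranged from 234 to 30617 CPM with a median of 555, a 131-fold range. Across the 48 libraries of 6 months without WT it ranged from 460 to 41203 CPM with a median of 5329. Across the 56 libraries of 10 months it lay between 215 and 1493 CPM with a median of 538, a 6.93-fold range. The library of the highest sum was Q92 replicate F1 at 2 months, Q111 replicate F1 at 6 months and Q20 replicate F1 at 10 months. The low ends and the medians of 2 and 10 months lay close together, while the upper ends were far apart. Of the libraries of 2 months, 23 of 56 lay above the highest sum of 10 months, and at 6 months 33 of 48 did.

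**Figure D1:**
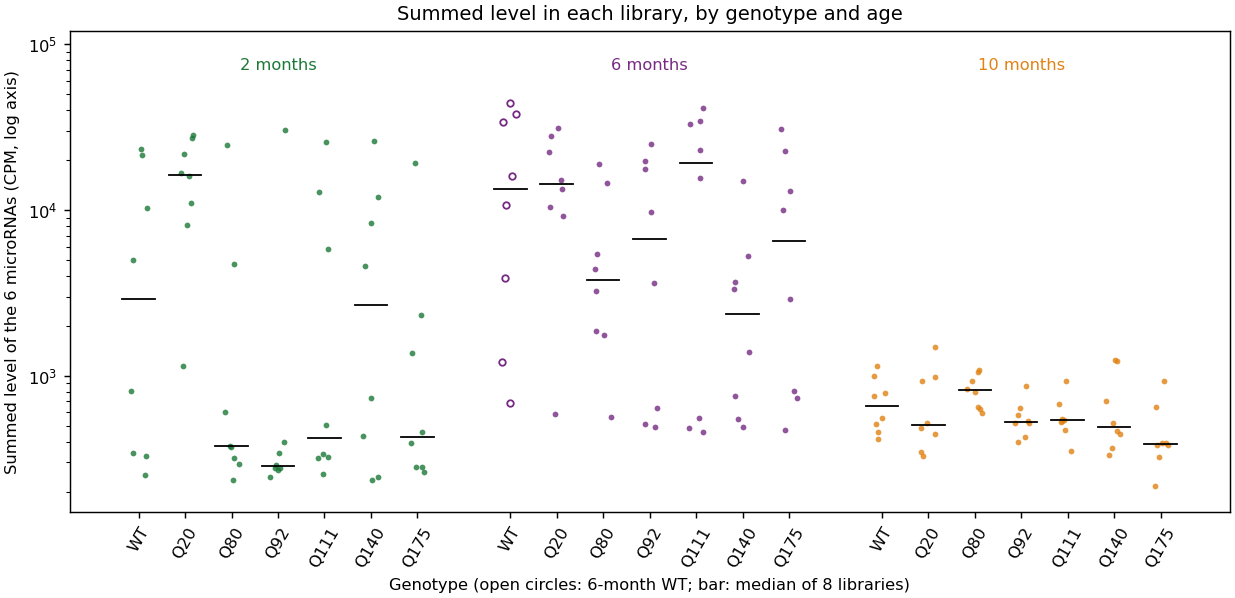
Summed level of the 6 microRNAs in CPM (log axis) in each library, by genotype within each age. Each point is 1 mouse, bars are medians of 8 libraries and open circles are the WT libraries of 6 months. At 2 and 6 months the libraries of 1 genotype spread over more than a factor of 10, whereas all libraries of 10 months lie between 215 and 1493 CPM.

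At 2 months the spread was present in controls and in knock-in mice. WT libraries ranged from 250 to 23456 CPM with a median of 2900, and Q20 libraries from 1142 to 28320 CPM with a median of 16353. In Q80 the sums ran from 235 to 24653 CPM around a median of 374, and in Q92 from 244 to 30617 CPM around a median of 284. In Q92 the high value came from a single library, F1, and the other 7 lay between 244 and 400 CPM. Q111 libraries ran from 255 to 25891 CPM (median 420), Q140 libraries from 234 to 25991 CPM (median 2665) and Q175 libraries from 263 to 19355 CPM (median 424). All 7 groups overlapped. In the order of the medians, Q20 stood first, followed by WT, Q140, Q175, Q111, Q80 and Q92, and no neighbours in this order were separated beyond their ranges. The number of libraries above the highest sum of 10 months was 7 of 8 in Q20, 4 of 8 in WT and in Q140, 3 of 8 in Q111, 2 of 8 in Q80 and in Q175, and 1 of 8 in Q92.

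High and low libraries were found at 6 months in every genotype as well. The sums ranged from 588 to 31209 CPM in Q20 (median 14278), from 560 to 19032 CPM in Q80 (median 3804) and from 491 to 25071 CPM in Q92 (median 6678). They ranged from 460 to 41203 CPM in Q111 (median 19354), from 493 to 14989 CPM in Q140 (median 2357) and from 468 to 30911 CPM in Q175 (median 6481). The lowest library of each of these 6 genotypes thus lay between 460 and 588 CPM. Q111 had the highest median, Q20 the next and Q140 the lowest, and the ranges of all 6 genotypes overlapped.

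By 10 months no genotype held a library above 1493 CPM. The medians were 655.8 CPM in WT (414 to 1144), 501 CPM in Q20 (329 to 1493), 814 CPM in Q80 (597 to 1080), 525.7 CPM in Q92 (396 to 871), 538 CPM in Q111 (350 to 934), 490 CPM in Q140 (332 to 1247) and 388 CPM in Q175 (215 to 925). Q80 stood first and Q175 last in this order, and these groups overlapped as well.

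Mir182, the most counted of the 6 and a microRNA of sensory cells, carried most of the sum. At 2 months it ranged from 122 to 25707 CPM with a median of 434, at 6 months from 358 to 35817 CPM with a median of 4626, and at 10 months from 105 to 1174 CPM with a median of 370. Mir96, which is made from the same cluster, ranged from 0 to 132 CPM at 2 months (median 1.91), from 0.246 to 186 CPM at 6 months (median 27.2) and from 0.593 to 8.001 CPM at 10 months (median 2.31). Both therefore had their widest range at 2 or 6 months and their narrowest at 10 months.

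The miR-200 members followed the same course. Mir429 ranged from 28.3 to 2488 CPM at 2 months (median 72.6), from 29.8 to 2469 CPM at 6 months (median 299) and from 25.9 to 158 CPM at 10 months (median 84.1). Mir200b ranged from 16.3 to 1219 CPM at 2 months (median 41.1), from 22.0 to 1212 CPM at 6 months (median 183) and from 14.5 to 76.3 CPM at 10 months (median 48.6). Their medians, like those of Mir96, were higher at 10 months than at 2 months, although the highest libraries were those of 2 and 6 months. Mir200a, with the reservation on shared reads, ranged from 10.3 to 1300 CPM at 2 months (median 25.3), from 8.596 to 1465 CPM at 6 months (median 233) and from 15.5 to 71.4 CPM at 10 months (median 30.7). Mir200c, from chromosome 6, ranged from 0 to 159 CPM at 2 months (median 1.94), from 0 to 170 CPM at 6 months (median 23.2) and from 0 to 5.85 CPM at 10 months (median 1.32).

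**Figure D2:**
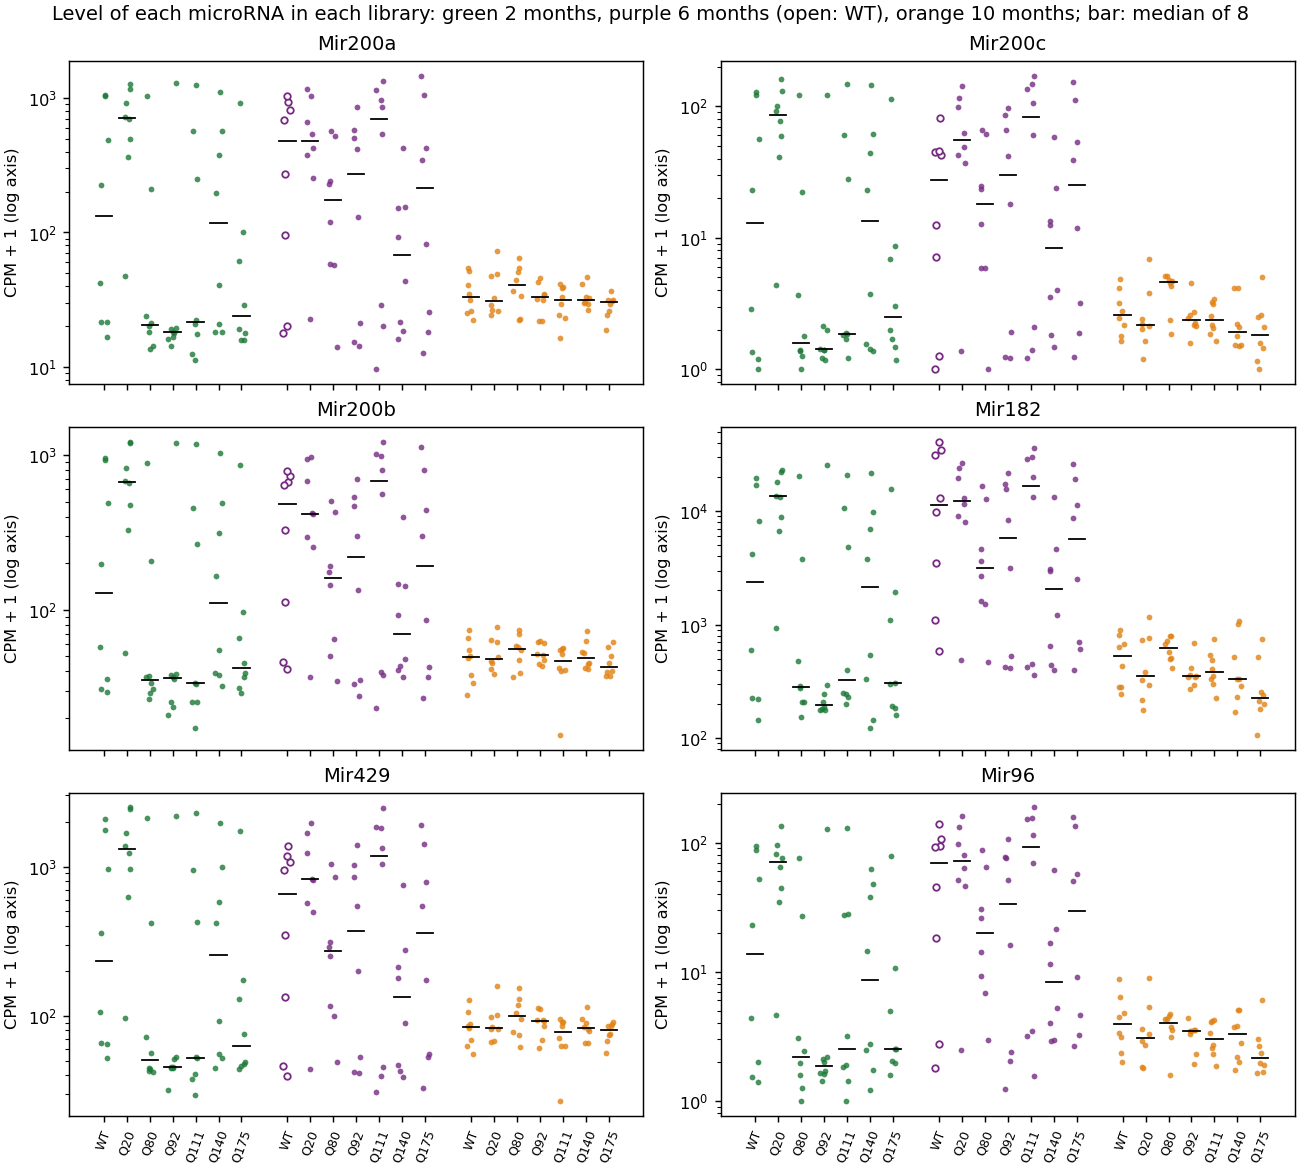
Level of each of the 6 microRNAs in each library as CPM + 1 (log axis), by genotype within each age. Points are mice, bars are medians of 8 libraries and open circles are the WT libraries of 6 months. The same groups hold the high libraries in all 6 panels, and the points of 10 months, in orange, stay in the lower part of each panel.

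Mir200c and Mir96 were near the limit of detection in many libraries. At 10 months the median library held 6 reads of Mir200c and 10 reads of Mir96, against 1683 reads of Mir182. Mir200c had no read in 5 of 168 libraries and Mir96 in 2 of 168, and a count of 0 there allows, at 3 counts, levels of up to 0.525 to 0.809 CPM in these libraries, a limit that covers counting error only.

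The members were high in the same libraries. At 2 months, 23 of 56 libraries exceeded the highest value of 10 months for all 6 microRNAs, 32 for none of them and 1 for some of them. At 6 months without WT the corresponding numbers were 31, 14 and 3 of 48 libraries. As a description of this co-variation, Pearson's r of log2(CPM + 1) was computed for the 15 pairs of members across the libraries of an age, which share library depth, normalization and mouse. At 2 months r lay between 0.984 and 0.996 with a median of 0.99 over the 15 pairs, and Spearman's rho lay between 0.84 and 0.95. At 6 months (48 libraries) r again lay between 0.985 and 0.996, and rho between 0.98 and 0.99. Without the 2 libraries farthest from the median, the median r was 0.99 at both ages. By r, pairs from different clusters rose and fell together almost as closely at these ages as pairs from one cluster, with a median of 0.99 against 0.99 at both ages. By rank, pairs across clusters were lower at 2 months, with a median rho of 0.88 (0.84 to 0.94) against 0.93 (0.92 to 0.95) within clusters. At 6 months the median rho was 0.98 for both.

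At 10 months, where the high libraries were missing, pairs of members from one cluster correlated more closely than pairs across clusters. The 4 pairs of members within a cluster had r between 0.79 and 0.92, and the 11 pairs across clusters had r between 0.22 and 0.74, over 56 libraries. Mir200b and Mir429, neighbours on chromosome 4, correlated at 0.92, Mir200a and Mir429 at 0.89, and Mir200a and Mir200b at 0.80. Mir182 and Mir96 correlated at 0.79, and Mir182 with the partner Mir183 at 0.97. Mir200c correlated at 0.88 with its neighbour Mir141. With the partners included the separation was not complete, since Mir141 correlated across clusters at 0.795 with Mir183, at 0.788 with Mir200a, with which it shares reads, and at 0.775 with Mir182, and Mir200c with Mir183 at 0.771, close to Mir96 with Mir183 of one cluster (0.785). Across clusters, Mir200c and Mir182, which lie far apart on chromosome 6, reached 0.74, whereas Mir182 with Mir200b gave the lowest value, 0.22. Mir200c shares its seed with Mir200b and Mir429, but at 10 months it correlated less with these (0.42 and 0.56) than with Mir182. Few reads of Mir200c and Mir96 widen their scatter at this age, and their part in these values was not tested. Without the 2 libraries farthest from the median the pairs across clusters lay between 0.37 and 0.71 and the pairs of one cluster between 0.77 and 0.90.

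**Figure D3:**
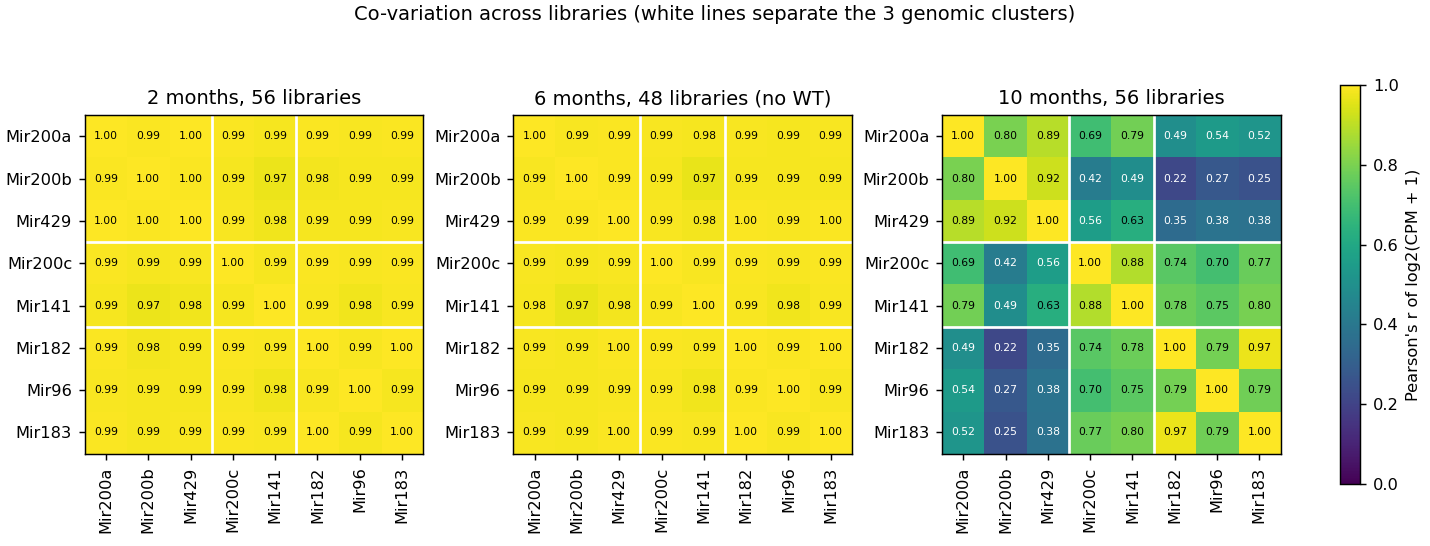
Pearson's r of log2(CPM + 1) between the 6 microRNAs and their partners Mir141 and Mir183, across 56 libraries of 2 months, 48 of 6 months without WT and 56 of 10 months. White lines separate the 3 genomic clusters. The lowest cell of the first 2 panels is 0.967, for Mir200b with Mir141 at 6 months, and at 10 months the blocks of one cluster are higher than the block of Mir182 with the chromosome 4 microRNAs, which reaches down to 0.22.

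The ratios between members showed in which respect the libraries differed. Per 1000 counts of Mir182, the library with the lowest ratio held 42.6 counts of Mir200b at 2 months and the highest 301, with a median of 85.3. At 10 months this ratio ran from 29.5 to 343 with a median of 131, and at 6 months from 29.3 to 103 with a median of 39.6. It was lower where the summed level was higher, with rho of −0.86 at 2 months, −0.68 at 6 months and −0.84 at 10 months, values to which Mir182 itself contributes as the largest part of the sum. Within the chromosome 6 cluster, Mir183 per 1000 Mir182 stayed between 74.6 and 175 at 2 months, between 76.2 and 127 at 6 months and between 83.1 and 171 at 10 months, although Mir182 itself varied 211-fold, 100.2-fold and 11.2-fold. The ratio of Mir429 to Mir200b, both of chromosome 4, stayed between 1159 and 2539 per 1000 at 2 months, between 987 and 2357 at 6 months and between 1388 and 2284 at 10 months, and was higher where the summed level was higher (rho of 0.61, 0.66 and 0.36). Mir200a per 1000 Mir200b ran from 415 to 1249 at 2 months, from 382 to 1382 at 6 months and from 457 to 1069 at 10 months, and followed the summed level with rho of 0.81, 0.75 and 0.51, with the reservation on reads shared between Mir200a and Mir141.

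The WT libraries of 6 months stood apart in these ratios. Their summed level ranged from 688 to 44412 CPM with a median of 13463, and the highest of them, replicate M4, exceeded all 160 libraries of the other groups. Per 1000 counts of Mir182, 7 of the 8 held between 34.1 and 49.9 counts of Mir183, below the lowest of the 48 knock-in libraries of 6 months (76.2). The remaining one, F3, held 134. Mir429 per 1000 Mir182 lay between 28.7 and 41.2 in 6 of the 8, below the lowest of the 48 (54.0), at 65.9 in F2 and at 106 in F3. Mir141 per 1000 Mir200c exceeded the highest of the knock-in libraries of 6 months, 14000, in 5 of the 7 WT libraries with reads of both. Across the genotypes this ratio reached 20000 at 2 months and 24000 at 10 months, and it rests on few reads of Mir200c in low libraries. All 8 WT libraries of 6 months carry L3 in their labels. The labels do not say that the L number is a lane and name no run, so equal L numbers need not be the same lane. Mir183 per 1000 Mir182 was between 76.2 and 95.6 in the 6 knock-in libraries of 6 months labelled with the same L number. It was between 103 and 151 in the 8 WT libraries of 2 months and between 111 and 152 in those of 10 months. Co-variation of the 6 members was nevertheless high in the WT libraries of 6 months, with a median r of 0.98 over 15 pairs and 8 libraries.

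**Figure D4:**
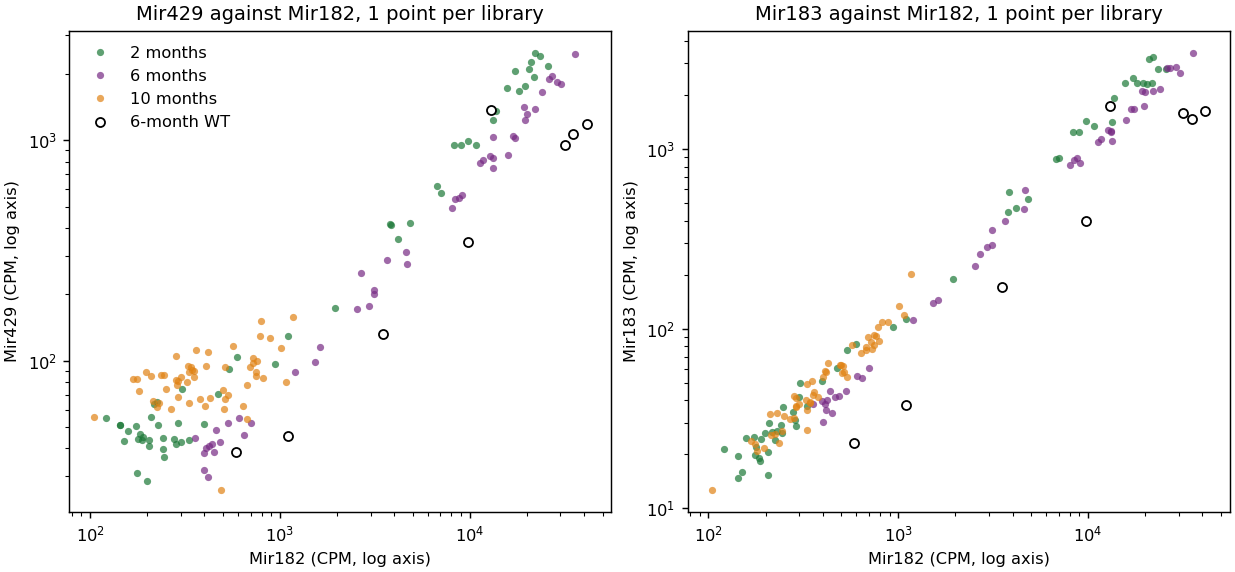
Mir429 (left) and Mir183 (right) against Mir182, in CPM on log axes, with 1 point per library. Mir183 follows Mir182 along one line at all ages, Mir429 levels off where Mir182 is low, and 7 of the 8 open circles (WT, 6 months) lie below the other libraries in the right panel, F3 being the exception.

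Mice of one cage could differ widely. At 2 months, 10 of 12 cages held libraries whose summed levels were more than 10-fold apart, with up to 126-fold between 4 mice of a cage of Q92 females, whereas the other 2 cages covered ranges of 1.48-fold (Q92 males) and 4.88-fold (Q175 females). The cages of the 48 knock-in libraries of 6 months are not given in the sources used here. At 10 months none of the 12 cages with more than 1 library had a range above 4.33-fold. The 4 L numbers of 2 months with more than 1 library each covered an 88.2-fold range or more, and at 6 months 5 of 7 such L numbers covered more than 10-fold. The 11 libraries of 6 months with the library code V ranged from 460 to 34384 CPM (median 14989) and the 37 with the code LB from 468 to 41203 CPM (median 4384). The medians of the 7 L numbers of 6 months ran from 696 CPM (L7) to 16394 CPM (L3). Genotypes were spread unevenly over codes and L numbers at this age, so these differences cannot be told apart from genotype. High and low libraries were thus found within most cages of 2 months, within most of these L numbers of 2 and 6 months, and within both library codes of 6 months.

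To see which microRNAs behaved like these, the deviation of each microRNA from the median of its genotype and age was correlated with that of the summed level over 160 libraries. Among the 214 other microRNAs of the study list with a mean of at least 10 CPM, the partners Mir183 (rho 0.98) and Mir141 (rho 0.94) came first. The next were Mir490 (0.29), Mir375 (0.21) and Mir25 (0.21), and the median of the 214 was −0.04. No other of the 214 had a rho over 0.5 and none was below −0.5. The pattern was thus shared within the 3 clusters, and none of the other microRNAs compared followed it at a comparable strength. MicroRNAs with a mean below 10 CPM and transcripts outside the matched study list did not enter this comparison.

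Lists of microRNAs known from other cells did not follow the summed level closely. For the 4 epithelial microRNAs Mir203, Mir205, Mir31 and Mir375, the summed level correlated with that of the members at a rho of 0.04 over 160 libraries, and it lay between 350 and 1054 CPM at 2 months, 453 and 854 CPM at 6 months and 408 and 558 CPM at 10 months. The 4 went different ways: Mir31, the most abundant of them, had a rho of −0.22, Mir205 of 0.06, Mir203 of 0.11 and Mir375 of 0.21. Mir375 reached 0.35 at 2 months and 0.32 at 6 months, and Mir31 −0.40 at 6 months. The 6 choroid plexus microRNAs, led by Mir204, gave a rho of 0.06 with sums between 2648 and 6331 CPM at 2 months and up to 12349 CPM at 10 months. At 2 months alone their sum gave −0.16. There Mir448 gave −0.50, Mir1264 −0.46, Mir1298 −0.32, Mir204 −0.15, Mir1912 −0.14 and Mir211 0.18. The 4 measured microRNAs of ciliated cells, led by Mir34c, gave −0.08, the 3 of vessels, led by Mir143, gave 0.06, and Mir144 of red blood cells gave −0.12. Of the ciliated list, Mir34c gave −0.08 and Mir34b −0.10, against 0.15 for Mir449a and 0.12 for Mir449c. Mir449a, with a mean of 4.84 CPM, reached 0.43 at 6 months. Of the vessel list, Mir126a gave −0.14, Mir143 0.11 and Mir145a 0.17. Mir146, measured for leukocytes and microglia, gave −0.04, Mir219a-2 and its copy for oligodendrocytes gave −0.21, the 3 neuroendocrine Mir7 genes, led by Mir7-1, gave −0.11, and the 3 posterior axis microRNAs, led by Mir10b, gave 0.13. The oligodendrocyte copies went opposite ways, with −0.22 for Mir219a-2 and 0.19 for the much less counted Mir219a-1, which reached 0.37 at 2 months. Mir122 of liver gave −0.09 with a median of 0.996 CPM at 2 months, and Mir206 of muscle gave −0.03 with a median of 0.172 CPM at 2 months. The sum of 7 neuronal microRNAs, led by Mir128-1, lay between 48885 and 77004 CPM in the 160 libraries, with a rho of −0.13. Single ages gave larger values for some lists. At 6 months the oligodendrocyte sum gave −0.36, Mir122 −0.32, Mir144 −0.32 and the posterior axis sum 0.32, and at 10 months the neuronal sum gave −0.32. In bulk tissue, more cells of a type and more microRNA per cell cannot be told apart.

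Association with CAG length was tested with edgeR's quasi-likelihood F test on all microRNAs of the study list, two-sided, and the fits were adjusted for sex and, in libraries of 6 months, for the library code. An adjusted p (Benjamini-Hochberg) under 0.05 is called significant. None of the 6 members was significantly associated with Q, the CAG length, at any age. At 2 months 0 of 6 were called, as 0% of the 327 microRNAs tested (13 at an unadjusted p under 0.05, and 0 called by DESeq2), at 6 months 0 of 6 beside 2.75% of 327, and at 10 months 0 of 6 beside 8.84% of 328. The coefficients, in log2 units per 100 CAG, were negative for all 6 at each age, with medians of −0.95, −0.66 and −0.28 against medians within 0.01 of 0 for all microRNAs tested. For Mir182 they were −0.98 ± 0.60 (SE, edgeR adjusted p = 0.84) at 2 months, −0.75 ± 0.58 (0.53) at 6 months and −0.35 ± 0.19 (0.26) at 10 months. At an unadjusted p under 0.05 the edgeR test passed 0, 0 and 1 member (Mir96) at 2, 6 and 10 months. In all it passed 13 of 327, 66 of 327 and 72 of 328 microRNAs. DESeq2 called 0 of 6 members at each age. Since the members move together, their common sign does not count as 6 separate results. The standard errors of the 6 members lay between 0.48 and 0.61 at 2 months, for coefficients between −0.91 and −1.11, and between 0.51 and 0.63 at 6 months, for coefficients between −0.53 and −0.75. Associations of this size did not pass the threshold beside the spread between mice.

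When the Z statistics of the later ages, 6 and 10 months, were combined by meta-analysis, 0 of 6 members were called beside 11.9% of 327 microRNAs. At an unadjusted p under 0.05, 3 members (Mir96, Mir182 and Mir200a) passed, beside 88 of the 327 in all. Mir96, which is best known for its part in hearing, came nearest with Z = −2.69 and an adjusted p of 0.055. Its coefficient was −0.73 ± 0.58 at 6 months and −0.50 ± 0.19 at 10 months, with an adjusted p of 0.096 at 10 months. With Mir96 at a median of 10 reads per library at 10 months, its position at the threshold depended on the setting: it passed with DESeq2 (adjusted p = 0.049), filterByExpr (0.047), the sex given in the sample labels (0.049) and the 6-month WT libraries included (0.021). The other members had Z between −2.20 (Mir182, adjusted p = 0.14) and −1.37 (Mir200b, adjusted p = 0.40).

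Each knock-in genotype was then compared with the controls of its age, Q20 and WT at 2 and 10 months and Q20 alone at 6 months. With edgeR no member was called in any of the 15 comparisons, and DESeq2 called 3 members in Q140 at 6 months and 0 in the other 14. At 2 months all 6 coefficients were negative in all 5 genotypes, and their medians on the log2 scale ran from −0.71 for Q140 over −1.02 for Q111, −1.77 for Q92 and −1.81 for Q80 to −2.37 for Q175. In each of these 5 comparisons edgeR called 0% of the microRNAs tested, with between 8 and 48 at an unadjusted p under 0.05, and DESeq2 called 2 microRNAs in Q80, 9 in Q92, 1 in Q140 and 0 in Q111 and Q175. At an unadjusted p under 0.05, 6 of 6 members passed in Q175, beside 19 of 327 microRNAs in all, and 1 (Mir200b) in Q80, beside 27 of 327. In the other 3 genotypes 0 members passed, and DESeq2 called 0 of 6 in each of the 5. The coefficient of Mir182 in Q175 was −2.52 ± 1.05, with an adjusted p of 0.64 in edgeR. The 5 comparisons share the same 16 control libraries.

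A single library decided the outcome for Q92 at 2 months. The summed levels of 7 Q92 libraries lay between 244 and 400 CPM, below 13 of the 16 control libraries, and F1 had 30617 CPM. With all 8 libraries Mir182 differed from the controls by −1.77 ± 1.41 (adjusted p = 0.57). Without F1, the library with the highest summed level of that fit, all 6 members were called, as were 13 of 326 microRNAs in all, with coefficients from −3.99 for Mir200b (adjusted p = 0.0033) to −6.87 for Mir200c (adjusted p = 0.0028). That library was identified by its level of these microRNAs, so the second set of values describes the fit and is no independent result.

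At 6 months the coefficients against the 8 Q20 libraries were negative in Q80, Q92, Q140 and Q175, with medians of −1.79, −0.72, −2.48 and −0.72, and positive in Q111 with a median of 0.83. Of the other knock-in genotypes, only Q111 shared L numbers with these Q20 libraries. Genotype and L number can therefore not be told apart for Q80, Q92, Q140 and Q175. No Q20 library carries the code V, so with the code as a covariate each coefficient rests mainly on LB libraries. All Q111 males and no Q111 females carry V, so the Q111 coefficient rests on its females. The share of microRNAs called by edgeR was 0% in Q80, Q111 and Q140 (21, 10 and 24 at an unadjusted p under 0.05, and 0, 0 and 5 called by DESeq2), 0.311% of 322 in Q92 and 2.77% of 325 in Q175, and no member was among them. In Q140, Mir96 differed by −2.82 ± 0.87 and Mir200b by −2.24 ± 0.72, both with an adjusted p of 0.39. With DESeq2 in place of edgeR, Mir96, Mir429 and Mir200b were called in Q140, each with an adjusted p of 0.026. At an unadjusted p under 0.05 the edgeR test passed 6 of 6 members in Q140 and 0 in the other 4 genotypes, where DESeq2 called 0 as well. In Q92 and Q175 this threshold passed 31 of 322 and 51 of 325 microRNAs in all.

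The differences were smaller at 10 months. Q80 had a positive median over the 6 coefficients (0.18), and the medians of Q140 (−0.11), Q92 (−0.17), Q111 (−0.29) and Q175 (−0.53) were negative. With edgeR no microRNA was called in Q80, Q92, Q111 and Q140 (0%), where 4, 23, 21 and 35 had an unadjusted p under 0.05 and DESeq2 called 0, 0, 1 and 1. In Q175 edgeR called 12.2% of 327 microRNAs, none of them a member. In Q175, Mir96 differed by −0.92 ± 0.44 (adjusted p = 0.19), Mir182 by −0.79 ± 0.38 (adjusted p = 0.19) and Mir200b by −0.17 ± 0.15 (adjusted p = 0.52). The partners Mir183 and Mir141 differed by −0.94 ± 0.41 and −1.16 ± 0.50, both with an adjusted p of 0.15. At an unadjusted p under 0.05 the edgeR test passed 2 members in Q175 (Mir200a and Mir96), beside 83 of 327 microRNAs in all. It passed 1 member in Q80 (Mir200c) and 0 in the other 3 genotypes, and DESeq2 called 0 of 6 in all 5.

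**Figure D5:**
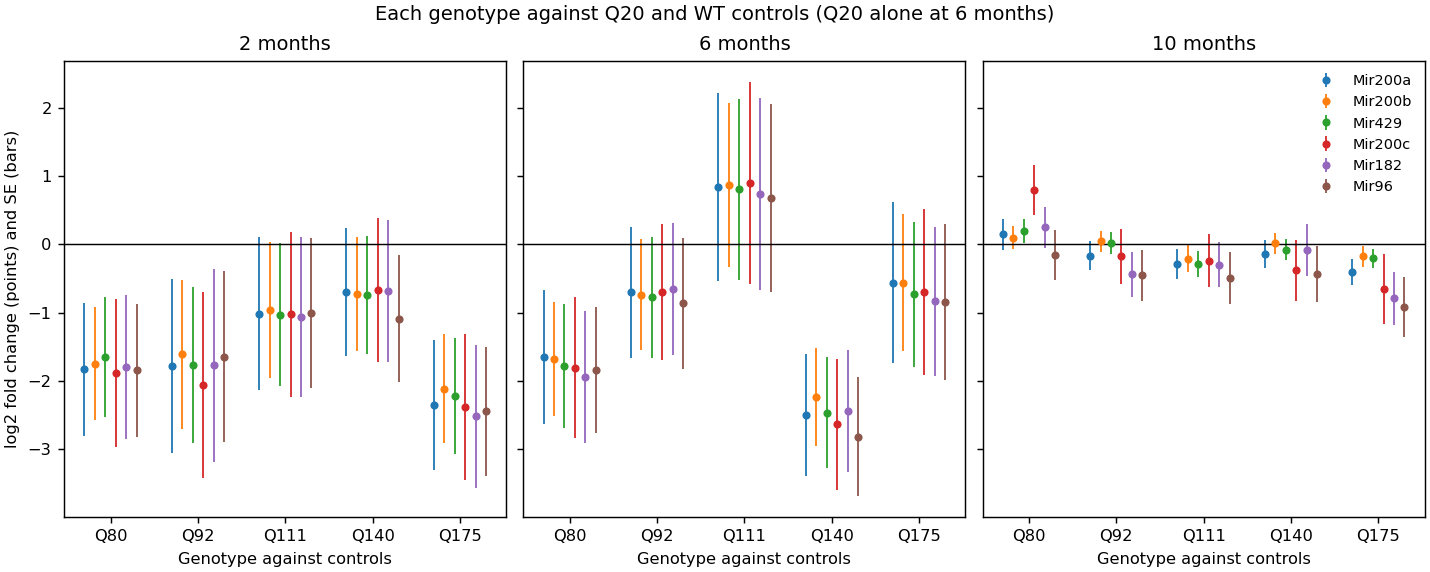
Log2 fold change (points) and its SE (bars) of each of the 6 microRNAs in each knock-in genotype against the controls of the same age, Q20 and WT at 2 and 10 months and Q20 alone at 6 months, from edgeR. The 6 points of a genotype lie close together with long bars at 2 and 6 months, and the points of 10 months lie between −0.92 and 0.80. No point passed an adjusted p of 0.05 in edgeR.

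Females and males did not differ significantly. The male minus female medians of the 6 coefficients were 0.06 at 2 months, −0.15 at 6 months and 0.10 at 10 months, with 0 of 6 called beside 0.612%, 0.306% and 0.305% of all microRNAs tested. The association with Q was not significantly different between 2 and 10 months (0 of 6 called, 1.83% of all, median difference 0.67) or between sexes at 6 and 10 months (0 of 6 called, 0% of all with edgeR and 0 with DESeq2, 18 at an unadjusted p under 0.05, median difference −0.30). In these 5 comparisons the edgeR test passed 0 of 6 members at an unadjusted p under 0.05, and DESeq2 called 0 of 6.

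The difference between 2 and 10 months belongs to the pattern the members were chosen for, and nothing is read from its calls. All 6 members had negative coefficients in the edgeR fit with genotype and sex as covariates, between −2.36 for Mir200b and −4.09 for Mir200c with a median of −3.11, and all 6 were called beside 65.9% of all 328 microRNAs. The fitted means differed through the upper part of the range. The mean summed level was 6786 ± 9569 CPM (SD, n = 56) at 2 months and 638 ± 279 CPM (SD, n = 56) at 10 months, whereas the medians were 555 and 538 CPM. By their labels, 52 of the 56 libraries of 2 months carry L numbers 1 to 5 and the 56 libraries of 10 months L numbers 6 to 8. Age and L number can therefore not be told apart for most libraries.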

How the data were processed

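Small RNA of cortex was sequenced in 168 libraries. The authors mapped clipped reads to mm10 using STAR. Per Ensembl transcript and library they deposited an estimated count that was not normalized; the methods name HTSeq, and the submitters' processing notes name CASAVA 1.8.2. The deposited FPKM table was not used. Of the values above 0, 48.1% were not whole, and all were rounded. Transcripts were named with GENCODE vM21 (GRCm38), and 329 of the 480 microRNAs of the study's tested list matched. The members and the lists of microRNAs were chosen with earlier results of these data known.

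Tests used edgeR 4.0.16 in R 4.3.3 (TMM, robust quasi-likelihood F test, two-sided, Benjamini-Hochberg over all microRNAs of the list with at least 1 count). Q was entered per 100 CAG, with 7 for WT. The 6-month WT libraries were left out of the main tests and entered only as an alternative. Sex was that of the cage, which differs from the sample label in 2 libraries. At 6 months the library code, V or LB, was a covariate. Each SE is the coefficient divided by the root of its F value. Totals of 2041741 to 11646287 counts per library limit the precision for microRNAs with few reads.

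Named beside the members were the cluster partners, the 5 microRNAs of the highest correlation with the summed level, and the most abundant microRNA of each marker list. Further microRNAs of some marker lists were named where these went different ways. Correlations used log2(CPM + 1) in Python 3.11.15 with scipy 1.17.1. The alternatives tried were RLE normalization, DESeq2 1.42.0, other feature filters, replaced outlier counts, the fit without the library of the highest summed level, the labels' sex, a replicate block, no library code, the L number as a covariate, the 6-month WT libraries included, Q20 as the only controls and no Q175 mice. Not every alternative applied to every comparison. The L number entered only fits of 2 months or of 10 months alone, so no fit of 6 months was adjusted for it. The code was tested on simulated data of a single comparison, Q175 against controls at 10 months, drawn with the same dispersion for all transcripts. This does not cover the wide spread of the members at 2 and 6 months.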

Additional observations from a re-analysis of the deposited data

Results flagged for a closer look

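The gap between the end library and its neighbour, divided by the range of the 8 libraries of a group, was held against Dixon's critical value for 8 values in 147 sets, for the 6 microRNAs and their sum in 21 groups. For values drawn from a normal distribution chance flags about 1 in 20 such sets. The rate for these CPM values, which spread widely within many groups, was not measured, and since the 6 microRNAs move together, the flags of one library are not separate events.

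At 2 months, Q92 replicate F1 stood far above the other 7 in all 7 measures, with Mir200a at 1300 CPM, Mir200b at 1190, Mir200c at 121, Mir429 at 2171, Mir96 at 127, Mir182 at 25707 and the sum at 30617, where the next library had a sum of 400 CPM. In Q80 replicate M5, Mir200a was at 1040 CPM, Mir200b at 880, Mir200c at 122, Mir429 at 2108, Mir96 at 74.3, Mir182 at 20428 and the sum at 24653, against 4701 CPM in the next library. Q175 replicate M2 had Mir200a at 923 CPM, Mir200b at 862, Mir200c at 113, Mir429 at 1729, Mir96 at 77.1, Mir182 at 15652 and a sum of 19355 CPM, against 2334 CPM in the next.

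Q111 replicate F3 at 2 months was separated from the next library in Mir200a (1244 CPM), Mir200b (1178), Mir200c (146), Mir429 (2272) and Mir96 (127), and Q140 replicate F3 in Mir200b (1028 CPM), Mir200c (145), Mir182 (21698) and the sum (25991). At 6 months, Q140 replicate M3 stood above the other 7 with Mir200a at 423 CPM, Mir200b at 395, Mir200c at 57.4, Mir429 at 746, Mir96 at 59.8, Mir182 at 13307 and a sum of 14989 CPM.

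At 10 months the separated values were single microRNAs or pairs: Mir200c (5.85 CPM) and Mir429 (158) in Q20 replicate F1, Mir200c (3.54) in Q92 replicate M2, Mir182 (694) in Q92 replicate F4, Mir200b at the low end (14.5) in Q111 replicate M1, and Mir200c (3.998) and Mir96 (5.05) in Q175 replicate M4.

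Among the WT libraries of 6 months, which entered none of the main tests, 3 of 8 had a summed level above the highest Q20 library of that age (31209 CPM), up to 44412 CPM in replicate M4.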

How the results depend on the processing

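No call on a member was lost and no called value changed sign under any of the 13 alternatives, which gave 1482 values for the members. Calls appeared in 17 of them. The numbers of members called were 6 in Q92 at 2 months without the library of the highest summed level (F1), 3 in Q140 at 6 months with DESeq2, and in the meta-analysis 1 (Mir96) with DESeq2, filterByExpr or the labels' sex and 2 (Mir96 and Mir182) with the 6-month WT libraries included; the cause was not tested. With the replicate number as a block, 1 member, Mir96, was called in Q at 10 months (adjusted p = 0.048), in Q175 at 10 months (0.031) and in the meta-analysis (0.020). The samples share only that number and did not deviate together across genotypes (mean r of −0.040, −0.012 and 0.0043 at 2, 6 and 10 months), so the block is no pairing. Uncalled coefficients changed sign in 38 values. The meta-analysis without the library code, chosen after seeing the data, called 0 members.

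Over all microRNAs the number of calls went from 9 to 156 for Q at 6 months and from 39 to 111 in the meta-analysis when the 6-month WT libraries entered. With all transcripts with at least 1 count tested, it went from 9 to 21 for Q at 6 months, from 40 to 25 for Q175 at 10 months and from 216 to 366 between 2 and 10 months. The 9 calls for Q at 6 months became 15 with a replicate block or without the library code and 4 without the library of the highest summed level. Without the Q175 mice they fell from 9 to 0 at 6 months, from 29 to 1 at 10 months and from 39 to 4 in the meta-analysis. For Q92 at 2 months, where edgeR called 0, DESeq2 called 9, and the fit without the library of the highest summed level 13. For Q175 at 6 months the 9 calls became 3 with RLE or replaced outlier counts, 15 without the library code, 4 without the library of the highest summed level and 0 with the 6-month WT libraries.

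The median correlation over the 15 pairs was 0.89 at 2 months, 0.98 at 6 months and 0.95 in the 6-month WT libraries by rank, and 0.97 and 0.98 at 2 and 6 months with a pseudocount of 0.1 CPM. Without the 2 libraries farthest from the median it was 0.96 in the 6-month WT libraries. Depth limits Mir200c and Mir96, with medians of 6 and 10 reads per library at 10 months.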
